A study of Mus musculus with 4 samples.

Results

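Oligodendrocyte precursor nuclei of the mouse posterior substantia innominata were picked out of 4 droplet single-nucleus RNA sequencing libraries by counts of unique molecular identifiers (UMIs), each standing for 1 captured transcript. A nucleus was taken as a precursor when Pdgfra and Cspg4 together had at least 3 UMIs, 9630013A20Rik had at most 1, Mog plus Mag at most 1, Gja1 plus Aqp4 at most 1 and Syt1 plus Snap25 plus Rbfox3 at most 5. Only nuclei with 500 to 8000 genes and under 5% of UMIs from mitochondrially encoded genes were considered. The rule gave 571 precursor nuclei of 38868 kept nuclei, out of 40532 deposited barcodes. The precursor nuclei numbered 141 of 8829 in male 1, 142 of 8577 in male 2, 91 of 10881 in female 1 and 197 of 10581 in female 2. Of the nuclei that reached 3 UMIs of Pdgfra plus Cspg4 (348, 288, 188 and 293 in that order), the neuronal limit left out 182, 128, 75 and 72, and the limit on Mog plus Mag left out 69, 57, 59 and 33.

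Oligodendrocyte precursor cells are the glial progenitors that persist in the adult brain, where they tile gray and white matter, divide slowly and give rise to myelinating oligodendrocytes. They carry the receptor for platelet-derived growth factor AA, encoded by Pdgfra, and the proteoglycan NG2, encoded by Cspg4, and they receive synapses from neurons. On the way to myelination they pass through a committed stage marked by Gpr17 and a newly formed stage marked by Enpp6 and 9630013A20Rik, before the myelin genes Mbp, Mog and Mag are turned on.

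The study dissected the posterior substantia innominata, part of the basal forebrain, from mice at 8 weeks to measure sex differences in its neurons. All 4 libraries came from wild-type mice, 2 from males and 2 from females, and they were made with a Chromium 3′ droplet kit. Whether the 2 libraries of a sex are from different animals, whether animals were pooled and which strain was used is not in the labels. The p-values below therefore cover just the variation among these 4 libraries, part or all of which may be technical.

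Male libraries held more UMIs than female libraries, with 158132452 and 144035342 UMIs in male 1 and male 2 against 53098268 and 53679351 in female 1 and female 2. Precursor nuclei had a median of 4462 and 4524 UMIs in male 1 and male 2, against 2818 and 2373 in female 1 and female 2. All other kept nuclei had a median of 10525 and 10137 UMIs in the male libraries and 4216 and 3874 in the female libraries. Sex changed together with UMI depth, software version and gene list, and these cannot be told apart from it. Both male libraries were closely alike: over genes, the log2 ratio between the summed precursor counts of male 1 and male 2 had an SD of 0.469, against 0.892 between female 1 and female 2. The male libraries shared 23 barcodes and the female libraries 35, and none of these was a precursor nucleus in both libraries.

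Levels below are UMIs per 1000000 UMIs (CPM) of the summed precursor nuclei or of all other kept nuclei of a library, over the 31899 genes listed in every library. They are not corrected for gene length, so levels are compared between groups of nuclei and not between genes. The rule used the contrast of precursor nuclei with all other nuclei, so that contrast is described without a test. The genes that chose the nuclei were set apart by construction: Pdgfra stood at 878, 795, 1086 and 1483 CPM in the precursor nuclei of male 1, male 2, female 1 and female 2, against 9.68, 7.94, 15.2 and 15.2 CPM in all other nuclei. Cspg4 stood at 415, 434, 463 and 341 CPM in precursor nuclei, against 4.76, 4.27, 6.92 and 5.34 CPM in all other nuclei.

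At the edge of the rule, nuclei with exactly 3 UMIs of Pdgfra plus Cspg4 (30, 35, 35 and 73 nuclei in male 1, male 2, female 1 and female 2) had Vcan, the gene of the matrix proteoglycan versican, at 891, 1020, 1177 and 490 CPM. Nuclei just outside, with 2 UMIs and all other limits met (25, 24, 46 and 81 nuclei), had Vcan at 707, 837, 730 and 587 CPM. Sox10, a transcription factor of the whole oligodendrocyte lineage, stood at 529, 450, 355 and 664 CPM just inside and at 523, 566, 243 and 659 CPM just outside. Nuclei on both sides of the threshold therefore carried these genes far above the levels of all other nuclei, which were 23.3 to 31.7 CPM for Vcan and 19.7 to 51.0 CPM for Sox10.

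Other precursor genes that the rule did not use were high as well. Their list was chosen with earlier results of these data known, so they are a description and no independent check of the label. Of 25 further precursor genes, 24 had a mean of at least 10 CPM over both groups and so counted as measured, and all 24 were at least 2-fold higher in precursor nuclei than in all other nuclei in every library. Across all 9906 measured genes, 625 (6.31%) were at least 2-fold higher in every library and 629 (6.35%) at least 2-fold lower. These are the shares to set beside the counts of every gene list below. The summed level of the 25 genes took a median of 304, 304, 287 and 259 UMIs per 10000 in single precursor nuclei of male 1, male 2, female 1 and female 2, against 35.3, 35.1, 37.9 and 35.9 in all other nuclei. Only 3, 3, 1 and 1 precursor nuclei of those libraries had under 100 per 10000.

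The 30 leading genes were those outside the rule whose smallest ratio over the 4 libraries was largest, among 2249 genes with at least 50 CPM and 20 UMIs in the precursor nuclei of every library. Emid1 (chr11:5106265-5152257, minus strand), which encodes an extracellular protein with an EMI domain, led the list. Its level was 239, 242, 292 and 311 CPM in precursor nuclei of male 1, male 2, female 1 and female 2, against 3.95, 3.97, 9.67 and 7.48 CPM in all other nuclei. That was a mean of 39.3-fold after 1 CPM was added to each level, and every precursor sum lay far above every other sum. Vcan (chr13:89655312-89742509, minus strand) stood at 887, 1031, 874 and 616 CPM in precursor nuclei, against 26.3, 23.3, 31.7 and 23.6 CPM in all other nuclei, a mean of 31.0-fold.

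Several leading genes act at the cell surface or in the matrix. Sema3d, a secreted semaphorin that guides growing axons and migrating cells, averaged 438 ± 70.3 CPM in precursor nuclei and 13.8 ± 2.88 CPM in all other nuclei (SD, n = 4 libraries each). Itga9, an integrin alpha subunit that binds tenascin and other matrix proteins, averaged 331 ± 63.5 CPM in precursor nuclei and 14.8 ± 4.58 CPM in all other nuclei. Matn4, the matrix protein matrilin 4, averaged 285 ± 67.9 CPM in precursor nuclei and 9.78 ± 3.24 CPM in all other nuclei. Neu4, a sialidase that trims sialic acid from glycoproteins, was 34.4-fold higher on average, with single libraries between 15.6-fold and 61.0-fold. Calcrl, a receptor for calcitonin gene-related peptide and adrenomedullin, was 16.5-fold higher.

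Signalling and cytoskeletal genes followed. Shc4, an adaptor that couples receptor tyrosine kinases to Ras, stood at 212, 212, 213 and 159 CPM in precursor nuclei of male 1, male 2, female 1 and female 2, against 5.34, 4.93, 7.74 and 4.28 CPM in all other nuclei. Afap1l2, an actin-linked adaptor of Src and phosphoinositide 3-kinase, was 34.97-fold higher in precursor nuclei. Arhgap31, which switches off the GTPases Rac1 and Cdc42, was 24.9-fold higher, and Svil, the actin and myosin binding protein supervillin, was 15.5-fold higher. Rgcc, a regulator of the cell cycle, was 25.3-fold higher, and Cp, the copper-carrying iron oxidase ceruloplasmin, was 26.6-fold higher. Among genes with no role stated here, the noncoding 6030407O03Rik was 31.2-fold, C430049B03Rik 33.7-fold and the antisense gene Gm4876 20.1-fold higher. Gm4876 is annotated as antisense, and unless the counting used strand its reads cannot be told apart from those of a gene on the other strand.

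**Figure D1:**
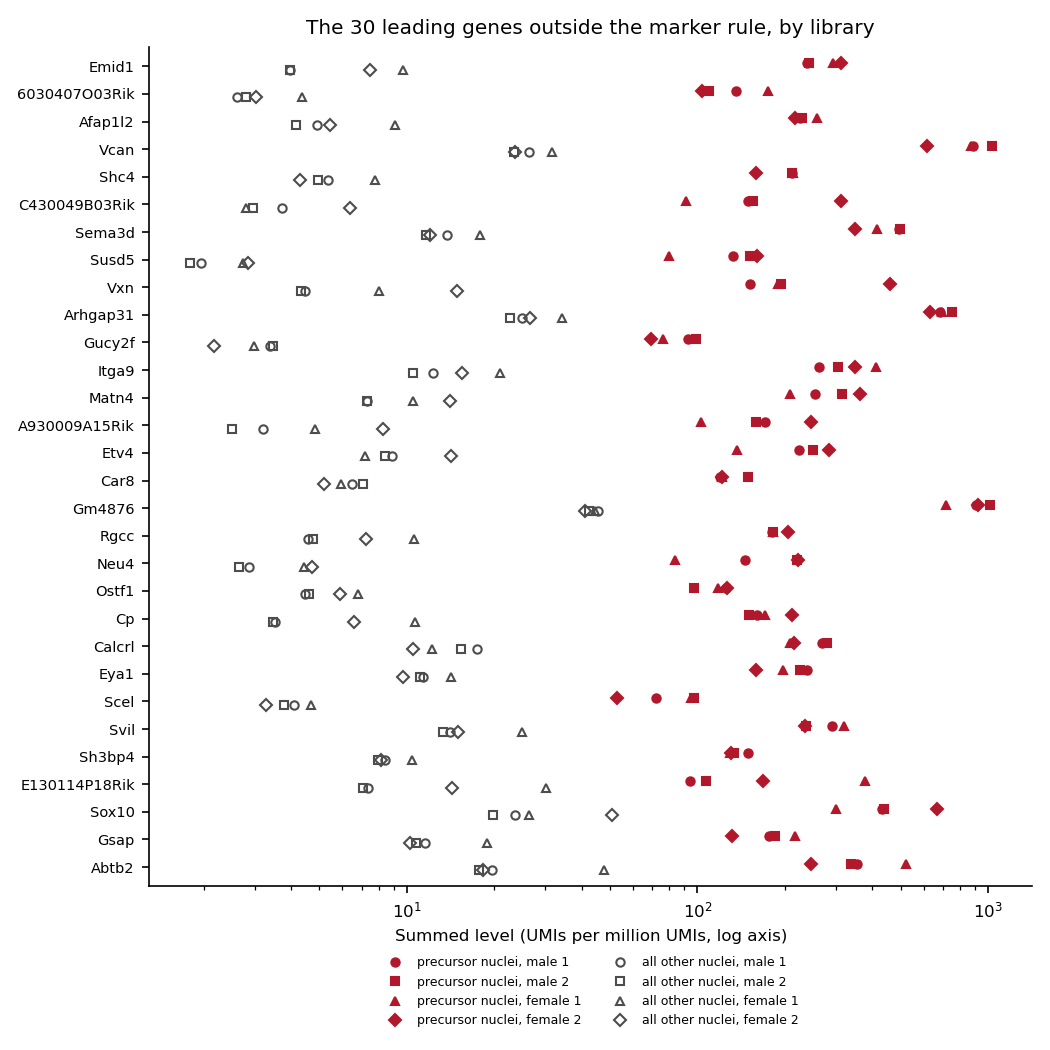
Level of the 30 leading genes (vertical axis) in CPM on a log axis, with precursor nuclei as filled red symbols above all other nuclei as open gray symbols, 1 symbol per library. For Emid1 the precursor sums lie between 239 and 311 CPM and the sums of all other nuclei between 3.95 and 9.67 CPM. No gene shown has overlapping groups, which their choice by the smallest ratio over the libraries all but fixes.

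The 250 bases before the start of transcription were read from RefSeq (GRCm38.p6) for the 21 of the 30 leading genes that had a window. They were searched on both strands for 3 short motifs. The motif ACAAAG, bound by SOX factors, was in 5 of these 21 windows (23.8%), against 16.5% of all 27018 windows. The E-box CAGCTG, bound by OLIG2 and related factors, was in 3 of the 21 (14.3%), against 12.8% of all windows. The ETS motif CCGGAAGT was in none of the 21, against 2.93% of all windows. A match is only a description of letters. The windows of Vcan (chr13:89742513-89742762, minus strand), Sema3d (chr5:12382916-12383165, plus strand) and Itga9 (chr9:118711442-118711691, plus strand) are shown as examples of matrix and guidance genes among the 30, in lower case with the SOX motif or the E-box in capitals.
Vcan: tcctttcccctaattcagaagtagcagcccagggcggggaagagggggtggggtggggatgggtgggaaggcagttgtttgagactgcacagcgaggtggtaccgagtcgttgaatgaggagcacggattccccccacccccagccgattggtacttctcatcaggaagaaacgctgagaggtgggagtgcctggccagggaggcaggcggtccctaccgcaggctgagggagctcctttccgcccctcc
Sema3d: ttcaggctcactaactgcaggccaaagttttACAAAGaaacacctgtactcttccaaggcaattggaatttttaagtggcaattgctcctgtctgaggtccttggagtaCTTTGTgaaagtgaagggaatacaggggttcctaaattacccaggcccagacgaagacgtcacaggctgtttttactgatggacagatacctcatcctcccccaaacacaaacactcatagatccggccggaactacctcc
Itga9: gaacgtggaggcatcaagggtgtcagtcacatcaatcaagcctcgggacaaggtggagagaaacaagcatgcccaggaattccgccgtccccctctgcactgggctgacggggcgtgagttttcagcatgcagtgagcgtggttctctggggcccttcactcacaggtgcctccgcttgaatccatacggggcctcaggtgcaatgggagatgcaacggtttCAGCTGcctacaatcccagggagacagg
The Sema3d window holds the SOX motif once on each strand, the Itga9 window holds 1 E-box, and the Vcan window holds none of the 3 motifs. The windows of Emid1 and Matn4, which are not shown, hold none of them either.

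Most transcription factors of the lineage were higher: of 32 measured, 21 were at least 2-fold higher in precursor nuclei in every library and 1, St18, was lower, with a list median of 2.17 on the log2 scale against -0.03 over all measured genes outside the rule. Sox10 (chr15:79154908-79165240, minus strand) stood at 432, 439, 300 and 666 CPM in precursor nuclei of male 1, male 2, female 1 and female 2, against 23.6, 19.7, 26.3 and 51.0 CPM in all other nuclei. Olig1 and Olig2, basic helix-loop-helix factors that specify the lineage, were 12.03-fold and 19.7-fold higher. Sox5 and Sox6, which hold precursors in an immature state, averaged 1148 ± 168 and 1835 ± 352 CPM in precursor nuclei, against 148 ± 24.5 and 237 ± 42.2 CPM in all other nuclei. The ETS factors Etv4, Etv5 and Etv1, targets of receptor tyrosine kinase signalling, were 20.9-fold, 6.12-fold and 4.82-fold higher. Nkx2-2, which promotes differentiation, was 10.8-fold higher and the homeobox factor Prrx1 was 12.4-fold higher. St18, a zinc finger factor that is high in differentiating oligodendrocytes, was the exception of this list, at 2.95, 16.5, 148 and 20.3 CPM in precursor nuclei against 163, 165, 318 and 186 CPM in all other nuclei.

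Of 30 measured genes of matrix proteoglycans and their partners, 14 were higher and 4 lower, and the median was 1.62 on the log2 scale. Besides Vcan, the lecticans Bcan, Ncan and Acan were 8.89-fold, 3.15-fold and 13.3-fold higher. Tnr, the matrix glycoprotein tenascin R, averaged 2779 ± 437 CPM in precursor nuclei and 453 ± 33.6 CPM in all other nuclei (SD, n = 4 libraries each). Ptprz1, a receptor phosphatase that carries chondroitin sulfate, averaged 2681 ± 274 CPM in precursor nuclei and 318 ± 19.3 CPM in all other nuclei. Some enzymes that build or trim the sugar chains were among the higher genes, with Xylt1, which starts the chains, 10.2-fold, Chst11, a chondroitin sulfotransferase, 5.84-fold and Sulf2, a heparan sulfate sulfatase, 8.27-fold higher. The 4 lower genes were Chsy3, Adamts17, Spock1 and Spock3.

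Growth factor ligands and receptors stood apart little once Pdgfra was set aside: 4 of 32 measured were higher, 1 (Bmpr1b) was lower, and the median was 0.33 on the log2 scale. The 4 were Lifr, the receptor of leukemia inhibitory factor (3.80-fold), Gfra1, a receptor for glial cell line-derived neurotrophic factor (4.06-fold), Vegfa, a vascular growth factor (2.82-fold), and Ptn, the heparin-binding factor pleiotrophin that binds Ptprz1 (5.04-fold). Erbb4, a neuregulin receptor, averaged 3158 ± 511 CPM in precursor nuclei and 1638 ± 355 CPM in all other nuclei, 1.95-fold on average, and did not reach 2-fold in every library. Fgfr1 was at 53.9 ± 2.41 CPM in precursor nuclei and 56.0 ± 4.53 CPM in all other nuclei, and Pdgfa, the ligand of the receptor encoded by Pdgfra, was at 11.3 ± 4.80 CPM in precursor nuclei and 17.8 ± 7.13 CPM in all other nuclei.

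Notch and Wnt genes held 10 of 24 measured genes higher and 1 lower, with a median of 0.69 on the log2 scale. On the Notch side the receptor Notch1 stood at 66.3, 63.1, 68.4 and 38.6 CPM in precursor nuclei of male 1, male 2, female 1 and female 2, against 4.02, 4.31, 9.45 and 4.90 CPM in all other nuclei. Its ligand Dll1 stood at 35.3, 52.6, 26.6 and 28.4 CPM in precursor nuclei, against 2.38, 2.55, 1.97 and 2.24 CPM in all other nuclei. The Notch targets Hes1 and Hes5 were 4.91-fold and 6.07-fold higher. On the Wnt side the ligand Wnt7a, the coreceptor Lrp4, the receptor-removing ligase Rnf43 and the repressor Tcf7l1 were 6.75-fold, 11.3-fold, 10.8-fold and 4.47-fold higher. Daam2, a Wnt effector high in other glia, was the lower gene.

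Receptors for transmitters were set against all other nuclei, which hold many neurons. Of 34 measured genes of AMPA, kainate, NMDA and metabotropic receptors, 2 were higher and 11 lower, with a median of -0.60 on the log2 scale. Over all measured genes, 6.31% were higher and 6.35% lower. Grin3a, an NMDA receptor subunit that lowers calcium entry, stood at 639, 562, 733 and 553 CPM in precursor nuclei of male 1, male 2, female 1 and female 2, against 184, 188, 233 and 201 CPM in all other nuclei. Cacng4, an AMPA receptor auxiliary subunit, was 7.83-fold higher. The AMPA subunits Gria2 and Gria4 stood at 1325 ± 133 and 1365 ± 110 CPM in precursor nuclei, against 1414 ± 14.3 and 1239 ± 79.8 CPM in all other nuclei. Gria1 was 6.65-fold lower, and the NMDA subunits Grin1, Grin2a and Grin2b were 5.21-fold, 11.4-fold and 9.95-fold lower. The AMPA receptor genes thus split by subunit within the same nuclei.

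GABA and glycine receptor genes held 10 of 17 measured genes lower and 0 higher, with a median of -1.56 on the log2 scale. Gabrb1 stood at 362, 521, 528 and 431 CPM in precursor nuclei of male 1, male 2, female 1 and female 2, against 1413, 1408, 1551 and 1164 CPM in all other nuclei. Gabra3 was closer, at 105 ± 7.37 CPM in precursor nuclei and 137 ± 19.1 CPM in all other nuclei. Among 51 measured ion channel genes, 5 were higher and 16 lower, against 6.31% and 6.35% of all measured genes. The 5 were Kcnj10 and Kcnj16, inward rectifier potassium channels of glia (3.91-fold and 8.76-fold), Kcnip3, a potassium channel partner (7.27-fold), Kcnmb4, a subunit of calcium-gated potassium channels (3.04-fold), and Kcnk10, a leak channel (2.73-fold). Kcnd2, which forms A-type potassium channels, averaged 4689 ± 464 CPM in precursor nuclei and 2749 ± 404 CPM in all other nuclei, short of 2-fold. The sodium channel genes Scn1a, Scn2a and Scn3a stood at 222, 227 and 174 CPM in precursor nuclei on average, against 298, 409 and 168 CPM in all other nuclei.

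G protein-coupled receptors of the lineage split evenly, with 6 of 23 measured genes higher and 6 lower. Ednrb, an endothelin receptor, averaged 96.8 ± 20.3 CPM in precursor nuclei and 14.4 ± 4.201 CPM in all other nuclei, and Gpr37l1, an orphan receptor of glia, was 7.19-fold higher. Adora1, an adenosine receptor, and Lgr5, an R-spondin receptor, were 4.45-fold and 3.92-fold higher. Steroid, thyroid and retinoid receptors held 1 of 14 measured genes higher, the fatty acid sensor Ppara, and 4 lower. The share higher was near that over all measured genes, 6.31%, while 6.35% of all measured genes were lower. Esr1 and Pgr, the receptors of estrogen and progesterone, stood at 7.06 and 9.51 CPM in precursor nuclei on average, against 26.9 and 42.3 CPM in all other nuclei. The thyroid hormone receptor genes Thra and Thrb were level, at 123 ± 18.1 and 319 ± 62.9 CPM in precursor nuclei against 120 ± 16.4 and 298 ± 16.5 CPM in all other nuclei.

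Of 42 measured guidance genes, 6 were higher and 13 lower, and semaphorins, plexins and netrins stood on both sides. The higher ones were Sema3d, Sema5a, Sema5b, Plxnb3, Srgap1 and Ntn1, a netrin, which was 12.02-fold higher at 225, 228, 152 and 118 CPM in precursor nuclei of male 1, male 2, female 1 and female 2 against 12.2, 13.3, 17.6 and 11.9 CPM in all other nuclei. The lower ones included Sema3a, Plxna4, the netrin gene Ntng1, the secreted ligands Slit1, Slit2 and Slit3 and their receptor gene Robo2, which was 8.30-fold lower. Of 66 synaptic and cell adhesion genes, 13 were higher and 14 lower. Lrrc4c, a netrin-G ligand, averaged 7849 ± 746 CPM in precursor nuclei and 2118 ± 229 CPM in all other nuclei, and Nxph1, a neurexin ligand, was 5.22-fold higher. Tenm2, Tenm3 and Tenm4, teneurins that link synaptic partners, were all among the lower genes.

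Genes that mark the step toward oligodendrocytes were partly on. Of 28 measured differentiation genes, 14 were higher and 0 lower, with a median of 1.75 on the log2 scale; the list shares Neu4, Nkx2-2, Sox8 and Lims2 with the precursor list. Bcas1, a marker of early oligodendrocytes, stood at 327, 353, 399 and 408 CPM in precursor nuclei of male 1, male 2, female 1 and female 2, against 37.0, 31.7, 87.9 and 55.0 CPM in all other nuclei. Itpr2, an intracellular calcium channel of committed precursors, was 11.3-fold higher, and Tns3, a tensin of focal adhesions, was 8.41-fold higher. Enpp6, which marks newly formed oligodendrocytes, had only 1, 0, 1 and 4 UMIs in all precursor nuclei of those libraries. Of 28 measured genes of myelin and mature oligodendrocytes, 2 were higher (Gjc3, a connexin, and Ninj2) and 5 lower (Mbp, Mobp, Aspa, Il33 and St18), with a median of -0.62. The share higher was near that over all measured genes, 6.31%, while 6.35% of all measured genes were lower.

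**Figure D2:**
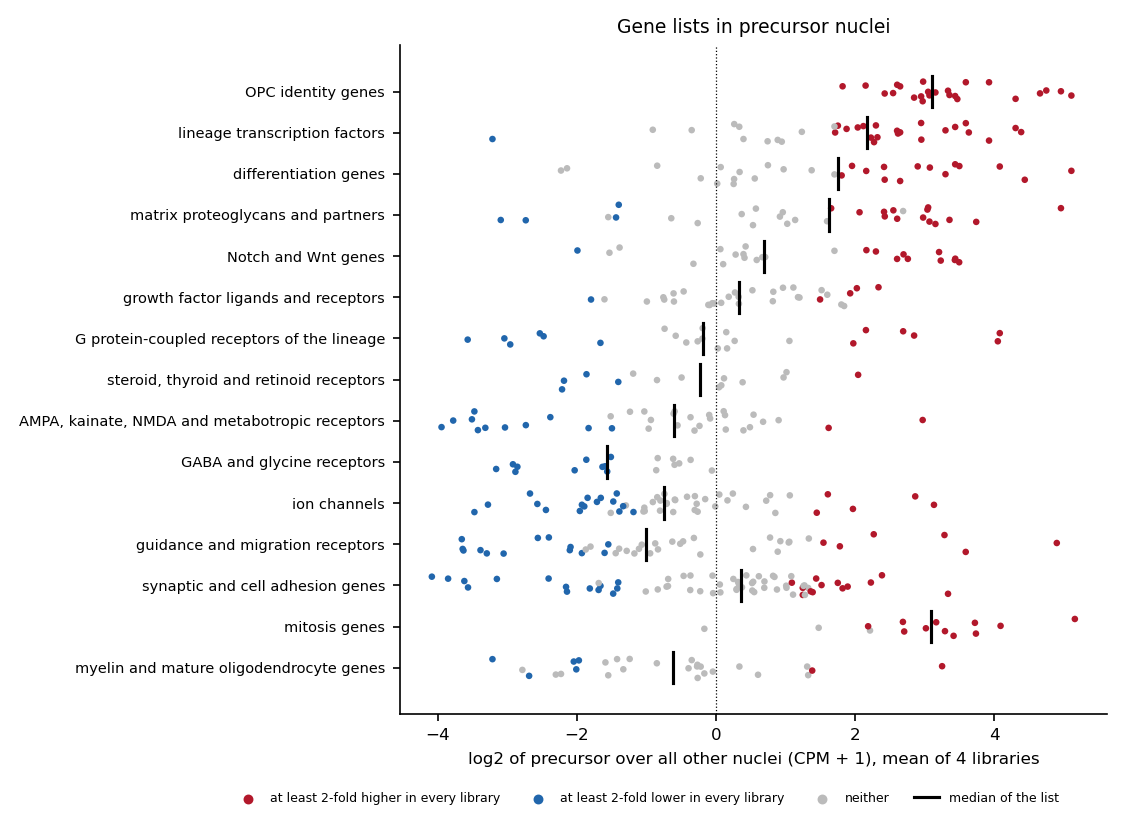
Each point is 1 measured gene of a list (rows), placed by its mean log2 ratio of precursor nuclei over all other nuclei across 4 libraries, with 1 CPM added to each level; black bars are list medians. Precursor genes have a median of 3.11 and lineage transcription factors of 2.17, while GABA and glycine receptors have a median of -1.56.

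The 10 genes most reduced in precursor nuclei were taken among those with at least 50 CPM in all other nuclei of every library. Tenm4 stood at 38.3, 51.1, 72.2 and 63.0 CPM in precursor nuclei of male 1, male 2, female 1 and female 2, against 698, 676, 737 and 621 CPM in all other nuclei, 12.3-fold lower on average. Bcl11a, a transcription factor of neurons, was 19.4-fold lower, and Trpc4, a cation channel, was 11.7-fold lower. Slit3 and Cntn5, an adhesion molecule of synapses, were 12.5-fold and 14.4-fold lower, and Hs3st4, a heparan sulfate sulfotransferase, was 19.5-fold lower. The other 4 of the 10 were Gm1043, Gm32647, 6530403H02Rik and Gm10754.

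Precursor nuclei were also set beside the next stage of the lineage. The precursor rule allowed at most 1 UMI of 9630013A20Rik, and the rule for newly formed nuclei at most 1 UMI of Pdgfra plus Cspg4. Nuclei with both markers were thus left out, so the separation is in part fixed by the rules and is described without a test. Newly formed oligodendrocyte nuclei were picked by at least 3 UMIs of 9630013A20Rik under the mirrored limits, without the limit on Mog plus Mag, a choice made after seeing that with it the males kept only 4 and 3 nuclei. This gave 22, 10, 55 and 49 nuclei in male 1, male 2, female 1 and female 2. Of 9552 genes measured, 763 (7.99%) were at least 2-fold higher in precursor nuclei in every library and 387 (4.05%) lower; with the limit kept, 570 of 9591 (5.94%) were higher. Enpp6 stood at 1.47, 0, 3.80 and 8.13 CPM in precursor nuclei, against 755, 796, 1041 and 689 CPM in newly formed oligodendrocyte nuclei. Mbp, the gene of myelin basic protein, stood at 50.1, 43.6, 198 and 73.1 CPM in precursor nuclei, against 8882, 5921, 4386 and 8297 CPM in newly formed nuclei. St18, Nfasc, which encodes a protein of axon and myelin junctions, and Frmd4a were also among the 10 most reduced genes, at 178-fold, 30.7-fold and 31.3-fold lower in precursor nuclei.

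In the other direction 3 ETS factors stood among the 10 leading genes. Etv4 (chr11:101769742-101785371, minus strand) stood at 224, 249.4, 137 and 284 CPM in precursor nuclei of male 1, male 2, female 1 and female 2 and had no UMI in the newly formed nuclei of any library. Etv5 stood at 180, 180, 163 and 134 CPM in precursor nuclei, against 7.26, 0, 4.91 and 0 CPM in newly formed nuclei. Etv1 was the third, and Alk, a receptor tyrosine kinase, stood at 205, 275, 251 and 136 CPM in precursor nuclei against 14.5, 15.3, 19.6 and 5.47 CPM in newly formed nuclei, although its mean level was 217 CPM in precursor nuclei and 214 CPM in all other nuclei. Kcnip3 stood at 530, 531, 562 and 473 CPM in precursor nuclei, against 7.26, 30.6, 29.5 and 5.47 CPM in newly formed nuclei. Dpysl3, a cytoskeletal protein of growth cones, and Emid1 also stood among the 10, beside Gm2164, Gm38505 and E130114P18Rik. With 10 to 55 newly formed nuclei a library, 1 UMI there was worth 4.91 to 15.3 CPM, so their low levels are coarse.

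Mature oligodendrocyte nuclei (773, 776, 682 and 879 in male 1, male 2, female 1 and female 2) and astrocyte nuclei (84, 85, 72 and 55) were picked by mirrored rules on Mog plus Mag and on Gja1 plus Aqp4. Of 9904 genes, 1033 (10.4%) were at least 2-fold higher in precursor than in mature nuclei in every library and 686 (6.93%) lower. Myt1, a zinc finger factor of progenitors, stood at 421, 458, 376 and 262 CPM in precursor nuclei, against 3.16, 3.25, 7.81 and 6.10 CPM in mature nuclei, and Megf11, a cell surface protein that spaces cells of a type, was 53.4-fold higher. Il33, an alarmin of mature oligodendrocytes, stood at 7.36, 7.51, 7.60 and 10.2 CPM in precursor nuclei, against 656, 613, 247 and 438 CPM in mature nuclei. Against astrocyte nuclei, 722 of 10005 genes (7.22%) were higher and 634 (6.34%) lower in precursor nuclei. Stk32a, a kinase, stood at 424, 380, 406 and 378 CPM in precursor nuclei, against 0, 10.96, 0 and 0 CPM in astrocyte nuclei. Bmpr1b, a receptor for bone morphogenetic proteins, stood at 14.7, 9.02, 22.8 and 8.13 CPM in precursor nuclei, against 536, 603, 660 and 419 CPM in astrocyte nuclei. Daam2 was low in precursor nuclei beside both classes, 43.5-fold lower than in mature oligodendrocyte nuclei and 31.2-fold lower than in astrocyte nuclei.

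A small set of precursor nuclei carried many mitosis transcripts; the limit of 5 UMIs used below was set after seeing the data. Of 29 mitosis genes, only 14 reached a mean of 10 CPM over both groups and so counted as measured. Of these 14, 11 were at least 2-fold higher in precursor nuclei in every library and 0 lower, against 6.31% and 6.35% of all measured genes. The whole list summed to just 50.6, 54.6, 90.4 and 83.8 CPM in all other nuclei of male 1, male 2, female 1 and female 2. Genes so low there passed the limit mainly through their level in precursor nuclei, so these counts are in part fixed by it. Top2a, the topoisomerase that untangles chromosomes for division, had 17, 35, 18 and 86 UMIs in precursor nuclei of male 1, male 2, female 1 and female 2. Its level was 25.03, 52.6, 68.4 and 175 CPM in precursor nuclei, against 0.60, 0.81, 0.59 and 1.29 CPM in all other nuclei. Mki67, the proliferation antigen Ki-67, was 6.43-fold higher, and the kinetochore genes Cenpe and Cenpf were 10.7-fold and 13.2-fold higher.

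These transcripts were concentrated in few nuclei. At least 5 UMIs of the list were found in 3, 6, 4 and 15 precursor nuclei of male 1, male 2, female 1 and female 2, which were 2.13%, 4.23%, 4.40% and 7.61% of them. In all other nuclei the shares were 1.30%, 1.21%, 0.62% and 0.93%, at higher median depth. The exact 95% binomial intervals, which cover counting error only, were 0.44% to 6.09%, 1.57% to 8.97%, 1.21% to 10.9% and 4.32% to 12.2% in precursor nuclei, and only the one of male 1 overlapped that of all other nuclei of its library. Those few nuclei held 83.9%, 94.4%, 85.6% and 96.2% of the list's UMIs in precursor nuclei, and the single highest nucleus of each library had 53, 141, 48 and 74. At a lower limit of 2 UMIs the shares were 4.26%, 8.45%, 6.59% and 8.12% in precursor nuclei, against 12.7%, 13.1%, 8.54% and 7.22% in all other nuclei, so that the order of the groups turned in 3 libraries. After each nucleus was thinned to 2000 UMIs and the rule applied again, at least 5 UMIs were found in 1.30%, 0, 3.17% and 11.2% of 77, 68, 63 and 107 precursor nuclei, against 0.28%, 0.24%, 0.20% and 0.28% of all other nuclei; 0 of 68 nuclei allows up to 5.28% by the exact interval.

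The nuclei with at least 5 mitosis UMIs still carried precursor genes, with a median of 231, 260, 222 and 229 UMIs of the precursor list per 10000 in male 1, male 2, female 1 and female 2. They were set beside precursor nuclei with no mitosis UMI in the same library, as a description of 3 to 15 nuclei. DNA replication genes, a separate list, summed to 1639, 1993, 2100 and 1686 CPM in the mitotic nuclei, against 232, 286, 325 and 192 CPM in those with none. Atad2, a chromatin factor of replicating cells, stood at 226, 320, 300 and 303 CPM in the mitotic nuclei, against 15.8, 23.6, 37.3 and 9.98 CPM in those with none. Nfia, a nuclear factor of glial progenitors, was higher by 0.92, 0.75, 1.61 and 0.47 on the log2 scale in the mitotic nuclei. Sox10 was lower there in every library, at 113, 221, 120 and 454 CPM in the mitotic nuclei against 450, 448, 299 and 666 CPM in those with none. Bcas1 stood at 113, 221, 180 and 151 CPM in the mitotic nuclei, against 334, 370, 373 and 462 CPM in those with none. Both differences rest on few counts, with 2, 9, 2 and 21 Sox10 UMIs in all mitotic nuclei of a library.

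**Figure D3:**
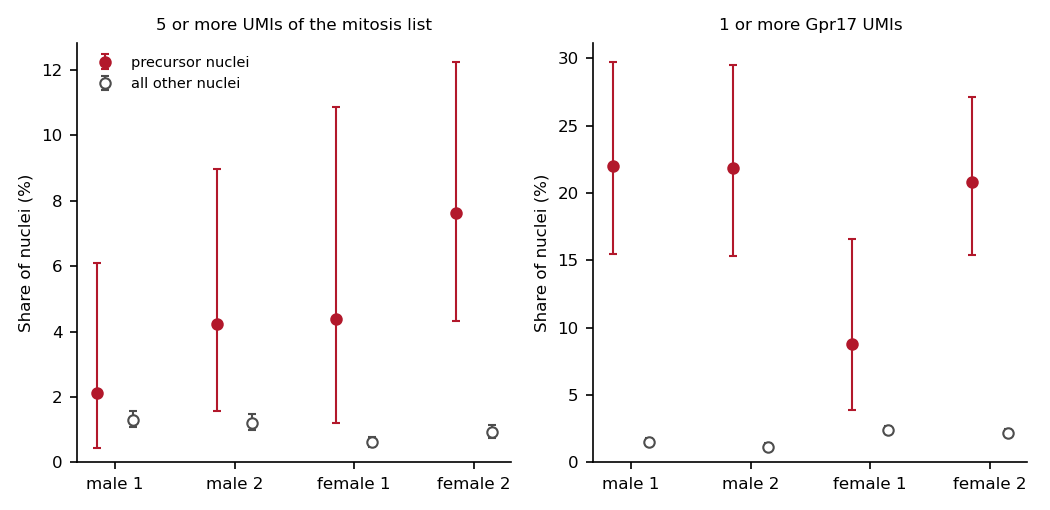
Share of nuclei in percent by library, with at least 5 UMIs of the mitosis list (left) or with a Gpr17 UMI (right), in precursor nuclei (filled red) and all other nuclei (open gray); bars are exact 95% binomial intervals. The precursor share is the higher one in each library and panel, and for mitosis it runs from 2.13% in male 1 to 7.61% in female 2.

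Gpr17, a receptor of committed precursors (chr18:31942997-31949636, minus strand), was detected in a minority of precursor nuclei. A Gpr17 UMI was found in 22.0%, 21.8%, 8.79% and 20.8% of the precursor nuclei of male 1, male 2, female 1 and female 2, with exact 95% intervals of 15.5% to 29.7%, 15.3% to 29.5%, 3.87% to 16.6% and 15.4% to 27.2%. In mature oligodendrocyte nuclei, which should lack the gene, the shares were 0.52%, 1.16%, 2.64% and 1.48% at median depths of 2141, 2043, 1833 and 1436 UMIs. All other nuclei together had 1.54%, 1.17%, 2.39% and 2.17%. After thinning to 2000 UMIs the precursor shares were 11.7%, 13.2%, 7.94% and 14.02%, with 2, 6, 17 and 67 shallower precursor nuclei left out, so female 1 stayed the lowest library and the shares lay closer together.

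Detection of Gpr17 split the precursor nuclei weakly. The split uses Gpr17 itself and is a description: nuclei with at least 1 Gpr17 UMI (31, 31, 8 and 41 in male 1, male 2, female 1 and female 2) were set beside those with none, a limit set after seeing that at least 2 UMIs were found in only 7, 4, 3 and 5. The differentiation list without Gpr17 summed to 3955, 4058, 4193 and 3784 CPM in nuclei with the receptor, against 3558, 3720, 3736 and 3730 CPM in nuclei with none. The nuclei with the receptor were the higher ones in each library, by a small margin. Lrrtm4, a synaptic adhesion gene, led the higher genes, by 0.24, 0.29, 0.22 and 0.38 on the log2 scale. Dnm2, the membrane-cutting dynamin 2, was among the lower genes, by -0.82, -0.61, -1.28 and -1.10. The mitosis list summed to 13.9, 255, 81.4 and 718 CPM in nuclei with a Gpr17 UMI, against 275, 612, 545 and 1104 CPM in nuclei with none. These sums stand for 2, 35, 2 and 79 UMIs against 147, 323, 130 and 422, and they rest on the 3 to 15 nuclei of a library that hold most of the list's UMIs.

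Transcripts of other cell types were present in the precursor sums. The summed neuron list includes Syt1, Snap25 and Rbfox3, and the summed astrocyte list includes Gja1 and Aqp4. The rule limits these genes in precursor nuclei, so the sums of both lists there are in part fixed by it. The counts of measured genes leave them out. The neuron list summed to 2063, 2155, 4117 and 5371 CPM in precursor nuclei of male 1, male 2, female 1 and female 2, against 19872, 19698, 16590 and 24387 CPM in all other nuclei; 4 of its 7 measured genes (Meg3, Snhg11, Gad2 and Celf4) were at least 2-fold lower and 0 higher. The astrocyte list summed to 1607, 1530, 1789 and 2322 CPM in precursor nuclei, against 595, 599, 1243 and 1088 CPM in all other nuclei. Of 8 measured astrocyte genes 2 were higher, among them Apoe, the lipid carrier apolipoprotein E. Microglia transcripts summed to 258, 204, 220 and 124 CPM in precursor nuclei, against 120, 110, 209 and 221 CPM in all other nuclei, with none of 6 measured genes 2-fold apart in every library. Their part in the levels above was not tested.

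Vascular transcripts came from few nuclei. The endothelial list summed to 730, 12.02, 3.80 and 8.13 CPM in precursor nuclei of male 1, male 2, female 1 and female 2, against 16.1, 18.9, 32.0 and 39.3 CPM in all other nuclei. The mural list, of pericytes and smooth muscle, summed to 552, 79.6, 34.2 and 12.2 CPM in precursor nuclei, against 14.3, 16.6, 40.4 and 34.6 CPM in all other nuclei. Pericytes can also express Cspg4, and fibroblasts Pdgfra. At least 2 UMIs of the mural and fibroblast lists were found in 5, 3, 2 and 1 precursor nuclei. One of them, in male 1, had 32544 UMIs, 4.77% of the precursor UMIs of that library, with 1 Pdgfra, 4 Cspg4, 308 mural and 431 endothelial UMIs and only 7.37 precursor-list UMIs per 10000. Without these 11 nuclei, 619 genes in place of 625 were at least 2-fold higher and 653 in place of 629 lower than in all other nuclei.

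**Figure D4:**
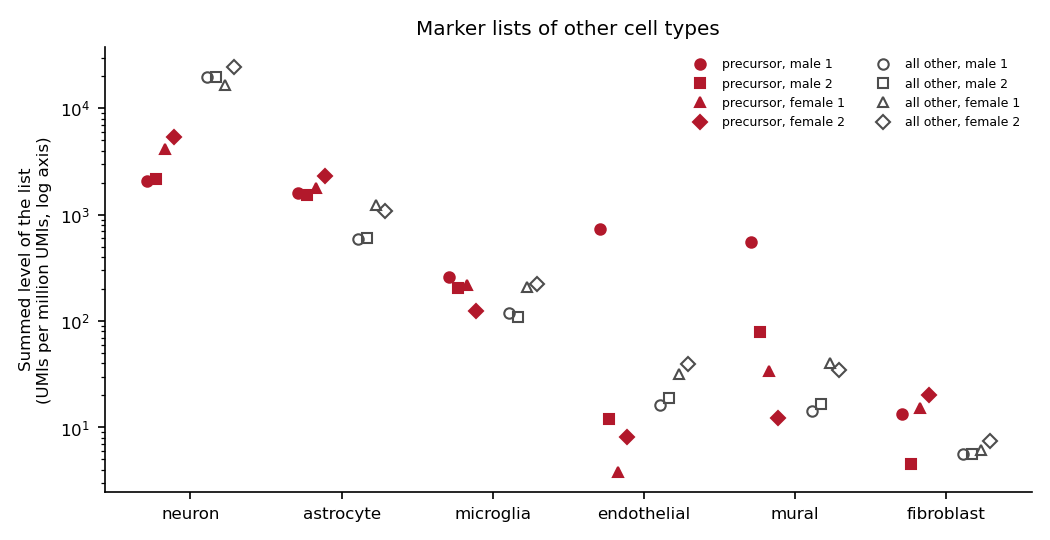
Summed level of each marker list in CPM on a log axis, with precursor nuclei (filled red) left of all other nuclei (open gray), 1 symbol per library. The neuron list is lower in precursor nuclei of every library, where the rule itself limits Syt1, Snap25 and Rbfox3. The endothelial list is at 730 CPM in male 1 and at 12.02 CPM or less in the precursor nuclei of the other libraries.

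Under the rule, the share of precursor nuclei did not separate the sexes. It was 1.60% and 1.66% of kept nuclei in male 1 and male 2, against 0.84% and 1.86% in female 1 and female 2, with exact 95% intervals of 1.35% to 1.88%, 1.40% to 1.95%, 0.67% to 1.03% and 1.61% to 2.14%. Both female libraries lay outside the male values, on opposite sides. The mean difference of 0.28 percentage points, male minus female, gave p = 1 in a two-sided exact permutation test over 4 libraries, whose smallest possible p is 0.333, and it turned to -0.24 without female 1. With at least 5 UMIs of Pdgfra plus Cspg4 the precursor shares were 1.04% and 1.00% in male 1 and male 2, against 0.33% and 0.72% in female 1 and female 2. With a neuronal limit of 15 per 10000 UMIs they were 1.76% and 1.81% in males, against 0.83% and 1.70% in females. Both males thus lay above both females in each of these settings (exact permutation p = 0.333 each). Under the rule, the share of precursor nuclei with a Gpr17 UMI was 7.11 points higher in males (exact permutation p = 0.333), 1.10 without female 1 and 13.1 without female 2. After thinning to 2000 UMIs that difference was 1.48 points (exact permutation p = 1). The share with at least 2 mitosis UMIs was 6.35% in males and 7.36% in females on average (exact permutation p = 1), and the difference of -1.01 points turned to 1.09 without male 1 and was -4.60 after thinning (exact permutation p = 0.667). At the limit of 5 mitosis UMIs both females, at 4.40% and 7.61%, lay above both males, at 2.13% and 4.23%, with a difference of -2.83 points (exact permutation p = 0.333). A design of 2 against 2 cannot reach 0.05, so these values do not show that males and females were alike.

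Between male and female precursor sums, edgeR's quasi-likelihood test called 13 of 8096 genes (0.161%) at a Benjamini-Hochberg adjusted p under 0.05, with 5 higher in males (0.0618%) and 8 higher in females (0.0988%). At an unadjusted p under 0.05 there were 654 genes, and the sums of both males lay on 1 side of both females for 2929 genes (36.2%). Leaving out 1 library changed the count by over 1.5 times each time, to 43 without male 1, 102 without male 2, 1100 without female 1 and 655 without female 2. Xist and the Y-linked genes went with the labels. All 4 Y-linked genes tested had a log2 fold above 0, and 3 were called. Of 10 X-linked genes listed as escaping inactivation, 8 log2 folds lay below 0 and 2 above, and only Xist was called. Xist (chrX:103460366-103483254, minus strand), the RNA that silences an X chromosome in females, had 0 and 1 UMIs in male 1 and male 2, against 725 and 1577 in female 1 and female 2. The Y-linked genes Uty, Eif2s3y and Kdm5d had 118 and 105, 94 and 100, and 40 and 50 UMIs in male 1 and male 2, and 0 in both female libraries. With 3 counts over both females as the limit that 0 allows, they were at least 41.8-fold, 36.3-fold and 16.9-fold higher in males, with edgeR adjusted p of 0.00767, 0.00928 and 0.0465. With at least 5 UMIs of Pdgfra plus Cspg4 in the rule, 4 of the 13 calls were lost, among them Kdm5d, with a fitted log2 fold of 7.37 there and 8.15 under the rule (edgeR adjusted p = 0.0633).

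For several other called genes the levels in all other nuclei are given beside those in precursor nuclei; none of them was called there. Arfip1 (chr3:84496093-84582625, minus strand), a membrane-bending protein of the Golgi, stood at 69.2 and 67.6 CPM in precursor nuclei of male 1 and male 2, against 3.80 and 2.03 CPM in female 1 and female 2. Its level in all other nuclei was 33.4 CPM for male 1 and 34.8 CPM for male 2, against 2.22 CPM for female 1 and 1.62 CPM for female 2. Gm12610, whose UMIs were 51 and 65 in males against 2 and 3 in females, had a log2 fold of 3.68 ± 0.48 (SE, edgeR adjusted p = 0.0419) in precursor nuclei and 3.82 in all other nuclei. With at least 5 UMIs of Pdgfra plus Cspg4, the log2 folds of Arfip1 and Gm12610 in precursor nuclei were 4.50 and 3.51, against 4.59 and 3.68 under the rule, and both calls were lost (edgeR adjusted p = 0.0841 and 0.111). The noncoding 8030451O07Rik stood at 2.95 and 6.01 CPM in male precursor nuclei, against 171 and 93.5 CPM in female ones, with a log2 fold of -4.75 there and -4.14 in all other nuclei. Tsix, the antisense partner of Xist, had 0 and 1 UMIs in males against 144 and 124 in females; reads of Tsix and Xist cannot be told apart unless the counting used strand. The male libraries listed 33696 genes each, against 55357 and 32285 in female 1 and female 2, and the part of the annotation in these differences was not tested.

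Among the genes called higher in female precursor nuclei were mitochondrial and neuronal transcripts. The mitochondrial gene mt-Nd2, a subunit of complex I, stood at 14.7 and 22.5 CPM in male 1 and male 2, against 277 and 319 CPM in female 1 and female 2 (edgeR adjusted p = 0.00566), and mt-Cytb at 92.8 and 126 CPM against 524 and 800 CPM (edgeR adjusted p = 0.0249). All 10 mitochondrial genes tested had a log2 fold below 0, with a median of -1.45, against -0.02 over all genes tested outside the rule. Both males lay below both females for 6 of the 10. Summed, these genes were at 773 and 1148 CPM in precursor nuclei of male 1 and male 2, against 1466 and 3965 CPM in female 1 and female 2. In all other nuclei they were at 363 and 401 CPM in males, against 516 and 3452 CPM in females, so female 2 stood apart in both classes. Of 20 myelin and mature oligodendrocyte genes tested, 19 lay below 0 with a median of -1.45, and 1 was called. The whole list, with Mog and Mag included, summed to 3842 and 4030 CPM in precursor nuclei of male 1 and male 2, against 5841 and 5702 CPM in female 1 and female 2. In all other nuclei it summed to 3773 and 3779 CPM in males, against 5744 and 5105 CPM in females, so the summed difference was not particular to precursor nuclei. This holds for the sum and not for every gene. The test of whether a sex difference differs between precursor and all other nuclei, described below, called 3 of the 20: Gjc3, Prr5l and St18. It called 124 of all 8089 genes tested between the sexes outside the rule. Meg3, a noncoding RNA abundant in neurons, stood at 789 and 801 CPM in male precursor nuclei, against 2085 and 2629 CPM in female ones (log2 fold -1.54 ± 0.20, edgeR adjusted p = 0.0419). The neuron list as a whole was 2063 and 2155 CPM in male 1 and male 2, against 4117 and 5371 CPM in female 1 and female 2. With a neuronal limit of 15 per 10000 UMIs in place of 5 UMIs, the log2 fold of Meg3 was -1.17 with an edgeR adjusted p of 0.0975; the part of the limit in the difference of the neuron list was not tested. Without male 1 or male 2 the log2 fold of Meg3 was -1.51 or -1.53, with an edgeR adjusted p of 0.277 or 0.179. The noncoding Gm48678 stood at 28.0 and 25.6 CPM in male precursor nuclei, against 258 and 140 CPM in female ones (log2 fold -2.83 ± 0.39, edgeR adjusted p = 0.0465), a call lost in 4 alternatives at log2 folds of about the same size. These were -2.82 with median-ratio scaling, -2.79 without the highest Scrublet scores, -2.78 without the 11 nuclei with mural or fibroblast transcripts and -2.61 with at least 5 UMIs of Pdgfra plus Cspg4 (edgeR adjusted p = 0.0517, 0.0507, 0.0511 and 0.055).

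**Figure D5:**
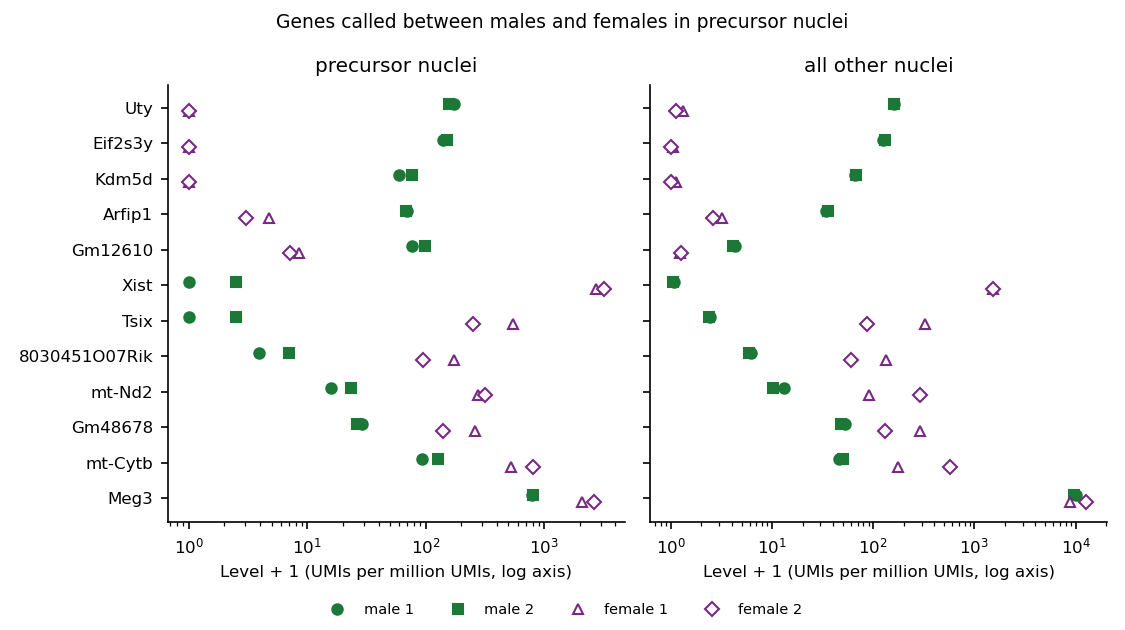
Levels of 12 of the 13 genes called between males and females, as CPM with 1 added, on a log axis, in precursor nuclei (left) and all other nuclei (right), with males as filled green and females as open purple symbols. For Arfip1 both males lie above both females in both panels, whereas for Meg3 the sexes separate in precursor nuclei and overlap in all other nuclei.

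Among the gene lists, none of 25 precursor genes tested between the sexes was called, with 13 log2 folds above 0 and 12 below and a median of 0.08. The sex by class term, described in the next paragraph, called 2 of these 25, Sox10 and Bcan. It called 124 of all 8089 genes tested between the sexes outside the rule. Vcan stood at 887 and 1031 CPM in male 1 and male 2, against 874 and 616 CPM in female 1 and female 2 (log2 fold 0.40 ± 0.23, edgeR adjusted p = 0.783). Lhfpl3, a tetraspan membrane gene of precursors, stood at 6092 and 6140 CPM in males, against 6103 and 4567 CPM in females (log2 fold 0.23 ± 0.20, edgeR adjusted p = 0.889). Of 15 mitosis genes tested none was called, and all 15 log2 folds lay below 0 with a median of -0.97. Top2a stood at 25.03 and 52.6 CPM in males, against 68.4 and 175 CPM in females (log2 fold -1.67 ± 0.50, edgeR adjusted p = 0.372), and 15 precursor nuclei with at least 5 mitosis UMIs came from female 2, against 4 from female 1. Of 10 steroid, thyroid and retinoid receptor genes tested none was called, 9 log2 folds lay above 0 and the median was 0.52. Nr3c1, the glucocorticoid receptor, stood at 181 and 194 CPM in males, against 103 and 122 CPM in females (log2 fold 0.75 ± 0.25, edgeR adjusted p = 0.432).

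Whether a sex difference was larger in precursor nuclei than in all other nuclei was tested with the sex by class term of edgeR, with library as a block. It called 166 of 18806 genes (0.883%). The count was 30 without male 1, 162 without male 2, 2 without female 1 and 0 without female 2 (1014 at an unadjusted p under 0.05), so most calls needed both females and male 1. In all other nuclei alone edgeR called 1 of 20526 genes (0.00487%), Xist, with 3570 at an unadjusted p under 0.05. Of the 13 genes called in precursor nuclei, only Meg3 was also called by this term; in all other nuclei its log2 fold was -0.01 (difference of log2 folds -1.47 ± 0.19, edgeR adjusted p = 2.71e-11). Slc24a2, a sodium and calcium exchanger of neurons, stood at 30.9 and 27.1 CPM in male precursor nuclei, against 292 and 126 CPM in female ones, and its difference of log2 folds was -2.50 ± 0.28 (edgeR adjusted p = 1.06e-14). St18 stood at 2.95 and 16.5 CPM in male precursor nuclei, against 148 and 20.3 CPM in female ones, where female 1 alone was high.

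The calls with a higher male fold were led by vascular genes of male 1. Cldn5, a tight junction protein of brain endothelium, had 67, 0, 0 and 0 UMIs in precursor nuclei of male 1, male 2, female 1 and female 2, and Vtn, the matrix protein vitronectin of pericytes, had 182, 24, 1 and 2. Their differences of log2 folds were 14.39 and 6.39 (edgeR adjusted p = 0.018 and 8.7e-11); the fitted value of Cldn5 depends on the prior count of the fit, since 3 of the sums are 0. Without the 11 nuclei with mural or fibroblast transcripts they were 1.56 and -0.20, with an edgeR adjusted p of 1 each. Vtn is itself in the mural list that picked those nuclei, so its fall is in part fixed by their choice; Cldn5 is in neither list. The total of 166 calls was 154 without those nuclei, 108 of them shared.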

How the data were processed

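Single-nucleus RNA was measured in 4 libraries. The authors deposited filtered UMI counts per gene and barcode, unnormalized. Per the file headers they were made with Cell Ranger 9.0.1 for male 1 and male 2, 7.0.0 for female 1 and 7.2.0 for female 2, whereas the submitters' processing notes name Cell Ranger 6.0.1, Seurat 5 and mm10. The labels' protocols name v2 and v3 reagents, without saying which library used which. Coordinates are those of GRCm38.

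The members and the gene lists were chosen with earlier results of these data known. Barcodes with 500 to 8000 genes and under 5% mitochondrial UMIs were kept, and counts were summed per library over 31899 shared genes (97.7% to 99.6% of UMIs). Fold ratios have 1 CPM added, and genes with a mean of at least 10 CPM over both groups count as measured. Named genes were the 30 highest and 10 lowest by the smallest change over the 4 libraries, among genes with at least 50 CPM and 20 UMIs in every library, 10 or 5 each way against other glia, the called genes between sexes with a mean of at least 20 CPM, and members of the lists. Sums were tested with edgeR 4.0.16 in R 4.3.3 (quasi-likelihood, TMM scaling, filterByExpr, Benjamini-Hochberg), after its sex fit and its sex by class fit were run on simulated data. DESeq2 1.42.0 was used as an alternative and was not run on simulated data. Shares have exact Clopper-Pearson 95% intervals and exact permutation tests (Python 3.11.15, scipy 1.17.1). Doublets were limited by the marker limits, and as an alternative the highest Scrublet scores (scanpy 1.11.5, 0.8% per 1000 barcodes) were left out. Intervals and floors cover counting error only. Results on some genes are not reported here.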

Additional observations from a re-analysis of the deposited data

Results flagged for a closer look

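The sex by class term of edgeR, which tests whether the male over female fold differs between precursor nuclei and all other nuclei, called 166 genes, and those with the largest differences of log2 folds in each direction are given here. Those with a higher male fold in precursor nuclei were Cldn5 (14.39), Adgrl4 (14.12), Rgs5 (13.55), Hspb1 (7.02), Ly6a (6.40), Vtn (6.39), Ly6c1 (6.01), Slco1a4 (5.66), Igfbp7 (5.53) and Flt1 (5.46). Most of these are endothelial or mural genes, and 11 precursor nuclei carried mural or fibroblast transcripts, 5 of them in male 1. Without those nuclei the differences were 1.56 for Cldn5, 1.14 for Adgrl4, 7.48 for Rgs5, 2.08 for Hspb1, 1.52 for Ly6a, -0.20 for Vtn, 0.26 for Ly6c1, 9.21 for Slco1a4, 0.45 for Igfbp7 and -7.62 for Flt1, each with an edgeR adjusted p of 1. The fitted value was thus larger for Slco1a4 without them and smaller or reversed for the other 9, but none was called. Where a gene has few UMIs, such values depend on the prior count of the fit, so their sizes are not to be ranked. Rgs5 and Vtn are in the mural list that picked the nuclei. The other genes had a lower male fold in precursor nuclei: Slc24a2 (-2.50), St18 (-2.26), Prr5l (-2.23), Pakap_ENSMUSG00000090053 (-2.17), Hs3st4 (-1.98), Klhl1 (-1.97), A830018L16Rik (-1.83) and Cpne7 (-1.76). Slc24a2 kept a difference of -2.39 without the 11 nuclei. None of the genes named here was called without female 1 or without female 2, although several differences stayed about as large. Without female 1 and without female 2 they were -2.34 and -2.57 for Slc24a2, -2.13 and -2.25 for Pakap_ENSMUSG00000090053, and 14.8 and 12.95 for Cldn5, while St18 was at -0.96 and -2.88.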

How the results depend on the processing

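The male minus female share of precursor nuclei, 0.28 points, was -0.035 with at least 2 UMIs of Pdgfra plus Cspg4, -0.16 after thinning to 2000 UMIs, and -0.24 to 0.79 when 1 library was left out. The Gpr17 difference of 7.11 points ran from 1.10 to 13.1 when 1 library was left out and was 1.48 after thinning. The mitosis difference of -1.01 points ran from -3.10 to 1.09 when 1 library was left out and was -4.60 after thinning and -2.83 at 5 UMIs. The 13 genes called between sexes became 42 with DESeq2, 299 without a filter on low counts and 43 to 1100 when 1 library was left out, where the lone library is assumed to vary like the others. The 166 sex by class calls became 59 with DESeq2 and 0 to 162 when 1 library was left out. Of the sex by class genes, Hspb1 ran from -5.98 without male 1 to 12.2 and Ly6a from -7.71 without male 1 to 12.6 when 1 library was left out. Without the vascular nuclei, the fitted values of Vtn and Flt1 reversed to -0.20 and -7.62, and neither was called. The cause of these changes was not tested. At 4-fold, 240 genes were higher and 186 lower than in all other nuclei, and 238 of the 570 were higher than in newly formed nuclei under the mirrored rule, which was 724 to 1054 when 1 library was left out. With 10 CPM added, 430 genes were higher and 460 lower than in all other nuclei.

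Replicate numbers did not pair the libraries: the correlation of deviations of same-numbered male and female sums was -0.03. With the replicate number as a block, edgeR called 183 genes between sexes and 106 for the sex by class term.

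Precision is limited by 91 to 197 precursor nuclei per library, by their lower depth in females, and by 2 libraries per sex, in which the sum of 1 library decides the counts of called genes.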
